A study of Mus musculus with 15 samples.

Results

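The genes described here encode the subunits of ligand-gated ion channels opened by GABA, glutamate, acetylcholine or glycine, measured by RNA sequencing of the whole mouse pituitary. They were chosen by gene symbol, and 58 of the 55523 rows of the count table carried such a symbol, 1 row each. The members were 19 GABA-A subunits, 18 ionotropic glutamate receptor subunits, 16 nicotinic acetylcholine receptor subunits and 5 glycine receptor subunits. The study deleted the pituitary enhancer (PE) of Nr5a1, a stretch of intron 6 that drives this nuclear receptor gene in gonadotropes, the pituitary cells that secrete luteinizing and follicle-stimulating hormone. Libraries came from 4 PE+/- males, 4 PE-/- males, 4 PE+/- females and 3 PE-/- females. PE+/- mice carried the deletion on 1 allele and served as the controls, and PE-/- mice carried it on both. Neither the age of these mice nor the number of founder lines was given in the sources used here, and PE-/- mice of both sexes were infertile, so a difference that arises in the pituitary cannot be told apart from 1 that follows from the gonads.

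GABA-A and glycine receptors are pentameric chloride channels, and nicotinic receptors are pentameric cation channels of the same superfamily. AMPA, kainate and NMDA receptors are tetrameric cation channels opened by glutamate. Outside the brain these channels occur in endocrine cells, including those of the anterior pituitary, where chloride and cation flow change membrane voltage, calcium entry and hormone release. Which subunits a cell makes sets the channel it can assemble. For example, a GABA-A receptor usually combines alpha, beta and gamma subunits, a heteromeric glycine receptor needs GLRB, and every conventional NMDA receptor needs GRIN1.

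Total counts per library ranged from 12982794 to 30238443, and the deposited values behave as about 4 counts per sequenced fragment. Levels are given as CPM, counts per 1000000 counts of the library size after scaling by the trimmed mean of M values (TMM), with the SD over n libraries. A limit of 12 counts, or 3 fragments, was used for detection. Nr5a1 itself had 621 to 1138 counts in the PE+/- males and 0 to 13 in the PE-/- males. In females it had 431 to 953 counts with PE+/- and 10 to 29 with PE-/-, so that every library fitted its genotype label. Avp and Oxt, genes of the hypothalamic neurons whose axons end in the posterior lobe, had counts in only 4 libraries. These were PE+/- male replicates 2 and 4 and PE-/- male replicates 3 and 4. The sum of 8 posterior lobe markers was 75.1 to 201.5 CPM in these libraries and 14.1 to 32.4 CPM in the other 11, and calls from fits that include them are given with and without them. Markers of neuronal cell bodies summed to 2.60 to 11.9 CPM and markers of skeletal muscle to 2.40 to 8.34 CPM, with Neurod6, Tbr1, Myog and Tnnt3 at 0 in all libraries.

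The 4 subunits that passed the adjusted threshold in a comparison were Chrna4, Gabra3, Grik3 and Grin3a. For the 3 of them with a RefSeq promoter sequence, the 300 bases around a RefSeq transcription start are shown (250 before and 50 after it, GRCm38.p6, 5′ to 3′ on the strand of the gene), because these are the regions next to the genes whose transcripts differed. Capitals mark CpG dinucleotides.

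Chrna4 promoter, chr2:181039128-181039427, minus strand: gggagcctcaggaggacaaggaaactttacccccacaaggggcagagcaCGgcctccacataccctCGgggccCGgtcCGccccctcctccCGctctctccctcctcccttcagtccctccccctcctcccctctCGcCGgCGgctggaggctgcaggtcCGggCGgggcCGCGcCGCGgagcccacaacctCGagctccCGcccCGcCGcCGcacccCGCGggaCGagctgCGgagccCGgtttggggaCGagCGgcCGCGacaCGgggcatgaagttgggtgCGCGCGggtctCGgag

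Gabra3 promoter, chrX:72656758-72657057, minus strand: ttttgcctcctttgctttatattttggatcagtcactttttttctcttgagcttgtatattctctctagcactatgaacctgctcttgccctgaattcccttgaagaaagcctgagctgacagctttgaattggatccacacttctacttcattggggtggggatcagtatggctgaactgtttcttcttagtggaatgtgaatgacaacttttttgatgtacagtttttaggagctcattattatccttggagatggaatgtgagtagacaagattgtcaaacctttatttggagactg

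Grik3 promoter, chr4:125490446-125490745, plus strand: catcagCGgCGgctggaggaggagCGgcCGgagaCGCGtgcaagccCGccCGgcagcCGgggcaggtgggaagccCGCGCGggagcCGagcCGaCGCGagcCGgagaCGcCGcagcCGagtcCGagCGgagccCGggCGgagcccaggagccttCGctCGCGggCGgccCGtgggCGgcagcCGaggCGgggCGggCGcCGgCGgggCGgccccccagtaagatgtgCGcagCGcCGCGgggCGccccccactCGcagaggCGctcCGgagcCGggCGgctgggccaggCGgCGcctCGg

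The Grik3 window had a GC content of 82.0% with 50 CpG dinucleotides, the Chrna4 window 74.3% with 33, and the Gabra3 window 39.3% with 0. Another RefSeq window of Gabra3, chrX:72656870-72657169, not printed here, had 43.0% with 0. NR5A1 is known to bind CAAGGTCA, which holds the shorter core AGGTCA. Neither run of letters was found on either strand of these windows. Over all 32851 RefSeq mouse promoters of this length, 1.56% held CAAGGTCA and 16.3% held AGGTCA. Promoter sequences matched 41 of the 58 subunits in 46 windows, and of these subunits Grin2c held the longer run and Chrna5, Chrnb2, Gabrr3 and Grin2c the shorter. A match or its absence in these letters says nothing of binding.

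Of the 58 subunits, 28 exceeded 12 counts in all 15 libraries. Another 17 did so in some libraries and 7 in none, and Gabra6, Gabrr3, Chrna5, Chrnd, Glra3 and Glra4 were at 0 counts throughout. Gabra6 is the alpha subunit of cerebellar granule cells, Gabrr3 belongs to the rho subunits of the retina and Chrnd to the receptor of the neuromuscular junction. Levels were compared between subunits as CPM per kb of merged exon, the length covered by all annotated exons of a gene. This corrects for transcript length only roughly, since it can exceed the length of the transcript made.

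Per kb, Chrnb3 was the most abundant subunit, with a mean of 35.2 CPM per kb over the 15 libraries, and it ranked first in 9 libraries and among the top 3 in 14. Its neighbour on chromosome 8, Chrna6, was at 19.0 CPM per kb. CHRNA6 and CHRNB3 are known to assemble together in nicotinic receptors of midbrain dopamine neurons, and CHRNB2, at 11.1 CPM per kb, is the usual beta partner in such receptors. Glra2, the alpha subunit of the fetal form of the glycine receptor, was at 22.7 CPM per kb and Glrb, which anchors the receptor to gephyrin, at 10.5. Among the GABA-A subunits, Gabra4 was at 11.01, Gabra2 at 2.83 and Gabra3 at 2.55 CPM per kb, all of them alpha subunits. Gria1 at 9.03 and Gria4 at 3.47 CPM per kb led the glutamate receptors, both of them AMPA subunits. The plot of levels per kb shows these 4 families side by side.

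**Figure D1:**
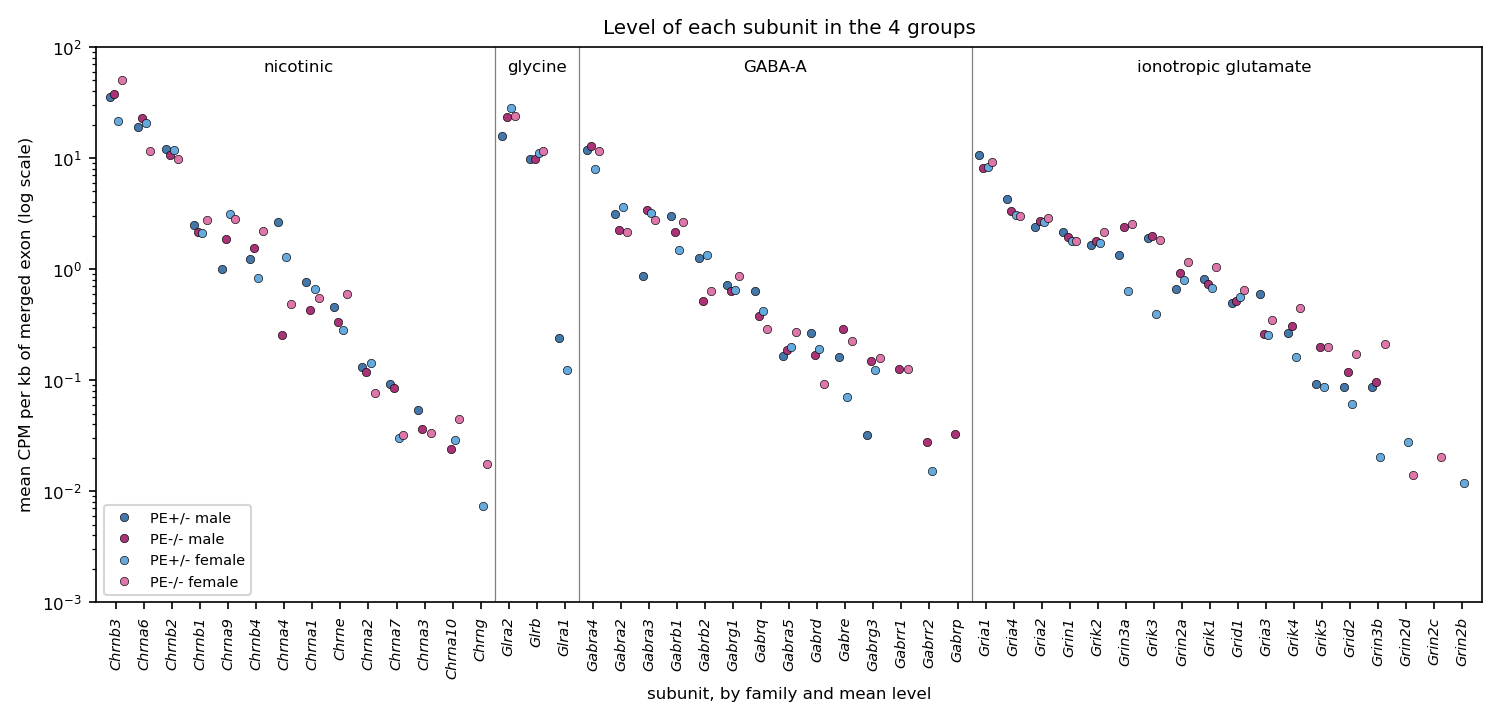
Mean CPM per kb of merged exon (log axis) of 49 subunits with counts in at least 1 library, by family and by mean level, 1 point per group and points at 0 left out. Chrnb3 and Chrna6 lead the nicotinic subunits, and the groups stand widest apart for Chrna4, Gabra3, Grin3a and Grik3 among subunits over 1 CPM per kb in some group.

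The libraries of Chrna6 and of Glra2 overlapped per kb in both male groups. In PE+/- males Chrna6 was at 19.0 ± 4.77 CPM per kb (SD, n = 4) and Glra2 at 15.7 ± 2.71. In PE-/- males they were at 22.8 ± 13.2 and 23.5 ± 1.49 CPM per kb (n = 4 each). The mean of Chrnb3 was above theirs in both groups, at 35.6 ± 8.19 and 37.5 ± 11.9 CPM per kb, and it was 50 ± 9.29 in PE-/- females (n = 3). In PE+/- females Chrnb3 was at 21.4 ± 17.2 CPM per kb, below Glra2 at 28.3 ± 9.64 (n = 4 each). The PE+/- females gave the widest range, 32.1 to 291 CPM for Chrnb3 and 9.25 to 150 CPM for Chrna6, with the highest value of both in replicate 1 and the lowest in replicate 3. Both genes of the pair were therefore high or low in the same control female. Their highest values also shared a library in PE-/- females, replicate 1, but not in either male group. In PE+/- males Chrna6 was highest in replicate 4 (65.7 CPM) and Chrnb3 in replicate 2 (303 CPM). In PE-/- males Chrna6 was highest in replicate 4 (123 CPM) and Chrnb3 in replicate 1 (327 CPM).

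Summed over all 58 subunits, the level was 178 ± 17.3 CPM per kb in PE+/- males and 181 ± 18.6 in PE-/- males (SD, n = 4 each), and 168 ± 50.6 in PE+/- females (n = 4) and 197 ± 23.9 in PE-/- females (n = 3). Nicotinic subunits made up 34.5 to 42.6% of this sum in the group means, GABA-A subunits 24.9 to 27.9%, glycine subunits 14.5 to 24.0% and glutamate subunits 13.5 to 15.5%. These shares describe transcripts, not assembled channels. Among the glutamate receptors, AMPA subunits summed to 14.2 to 18.0 CPM per kb in the group means, NMDA subunits to 3.29 to 5.76 and kainate subunits to 3.03 to 5.64. Over all libraries Grin1 had the highest mean of the NMDA subunits, 1.94 CPM per kb. In PE-/- mice Grin3a was above it, at 2.38 against 1.94 CPM per kb in males and 2.56 against 1.80 in females. Of the GRIN2 subunits, Grin2b, Grin2c and Grin2d reached at most 13, 5 and 9 counts in any library. Grin2a was the only GRIN2 subunit above the limit of 12 counts in all 15 libraries.

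Many members sit in gene clusters, and neighbours in a cluster differed in level. On chromosome 5 (mm10, 70751047 to 72149037) Gabra4 was at 11.01 CPM per kb beside Gabra2 at 2.83, Gabrb1 at 2.29 and Gabrg1 at 0.704. The X-linked cluster (72255999 to 72842602) held Gabra3 at 2.55 CPM per kb between Gabre at 0.184 and Gabrq at 0.440. In both clusters a single member carried most of the transcripts. Gabra4 and Gabrb1 share 46 exonic bases on opposite strands, Chrnb2 shares 1365 with Adar and Grin1 shares 1307 with its antisense gene Grin1os, and how the counting treated strand was not given in the sources used here. Chrna4, Gabra3, Grik3 and Grin3a shared no exonic base with another annotated gene.

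The first comparison asked which subunits differed between PE-/- and PE+/- males. Chrna4 was lower and Gabra3 was higher in PE-/- males, and no other of the 40 subunits tested passed the threshold of 0.05 for the adjusted p (edgeR quasi-likelihood F test, Benjamini-Hochberg adjustment over all 17392 genes tested). The 2 called were 5% of the subunits tested, against 0.132% of all genes. At an unadjusted p under 0.05 there were 9 of 40 subunits, against 6.14% of all genes, and the ranges of the 2 groups did not overlap for 7 of 40, against 4.53%. The log2 fold change was positive for 20 subunits and negative for 20, and its median was 0.02, beside 0.003 for all genes tested.

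Chrna4 (MSTRG.14735, mm10 chromosome 2, 181018380 to 181043546, minus strand) encodes the alpha-4 subunit, which with CHRNB2 forms the high-affinity nicotine binding receptor of the brain. Its counts were 266, 196, 206 and 200 across the PE+/- males, against 42, 37, 19 and 11 across the PE-/- males. Every PE-/- male was below every PE+/- male. The male level fell from 13.3 ± 4.03 CPM to 1.27 ± 0.668 CPM (SD, 4 libraries each). The log2 fold change was -3.39 (SE 0.41) with an adjusted p of 0.0203 (edgeR). For females the counts were 52, 151, 97 and 164 with PE+/- and 51, 73 and 41 with PE-/-. As CPM the 2 female groups were also apart, with 4.03 to 9.95 CPM (mean 6.40 ± 2.56, n = 4) against 1.79 to 3.13 CPM (mean 2.42 ± 0.675, n = 3). The female log2 fold change was -1.43 (SE 0.37) with an adjusted p of 0.120, which did not pass. The difference of 1.96 (SE 0.55) between the 2 sexes did not pass either, with an adjusted p of 0.200 (edgeR), and was 1.73 (adjusted p 0.701) without the libraries with posterior lobe markers.

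With both sexes in a fit with sex as a term, the log2 fold change of Chrna4 was -2.45 (SE 0.40) with an adjusted p of 0.00902 (edgeR), lower in all 7 PE-/- libraries than in the PE+/- libraries of the same sex. This call held without each of the 15 libraries in turn, and without the 4 male libraries with posterior lobe markers it was -2.03 with an adjusted p of 0.0363. In males alone the call was lost without PE+/- male replicate 1, 3 or 4 or PE-/- male replicate 2 or 3, with adjusted p of 0.0562, 0.0701, 0.0834, 0.107 and 0.0930 in this order, while the log2 fold change stayed between -3.75 and -3.17. Without the 4 male libraries with posterior lobe markers it was -3.15 with an adjusted p of 0.193 on 2 libraries a group. The 6 gonadotrope markers were Nr5a1, whose enhancer was deleted, and Lhb, Fshb, Gnrhr, Cga and Foxl2. They summed to 8985 to 16845 CPM in PE+/- males and 1335 to 7013 CPM in PE-/- males, so that Chrna4 and the gonadotrope list were low in the same 4 libraries. The part of this in the result was not tested, and in a whole gland fewer cells of a type and less RNA per cell cannot be told apart. In females the same list summed to 5797 to 8861 CPM in PE+/- and 2261 to 7151 CPM in PE-/- mice, with none of the 6 markers at 0 in a whole group. Such sums follow the most abundant markers. The median log2 fold change of the 6 markers was -4.89 in males, where 6 were lower. It was -3.51 in females, where 5 were lower and 1 was higher.

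**Figure D2:**
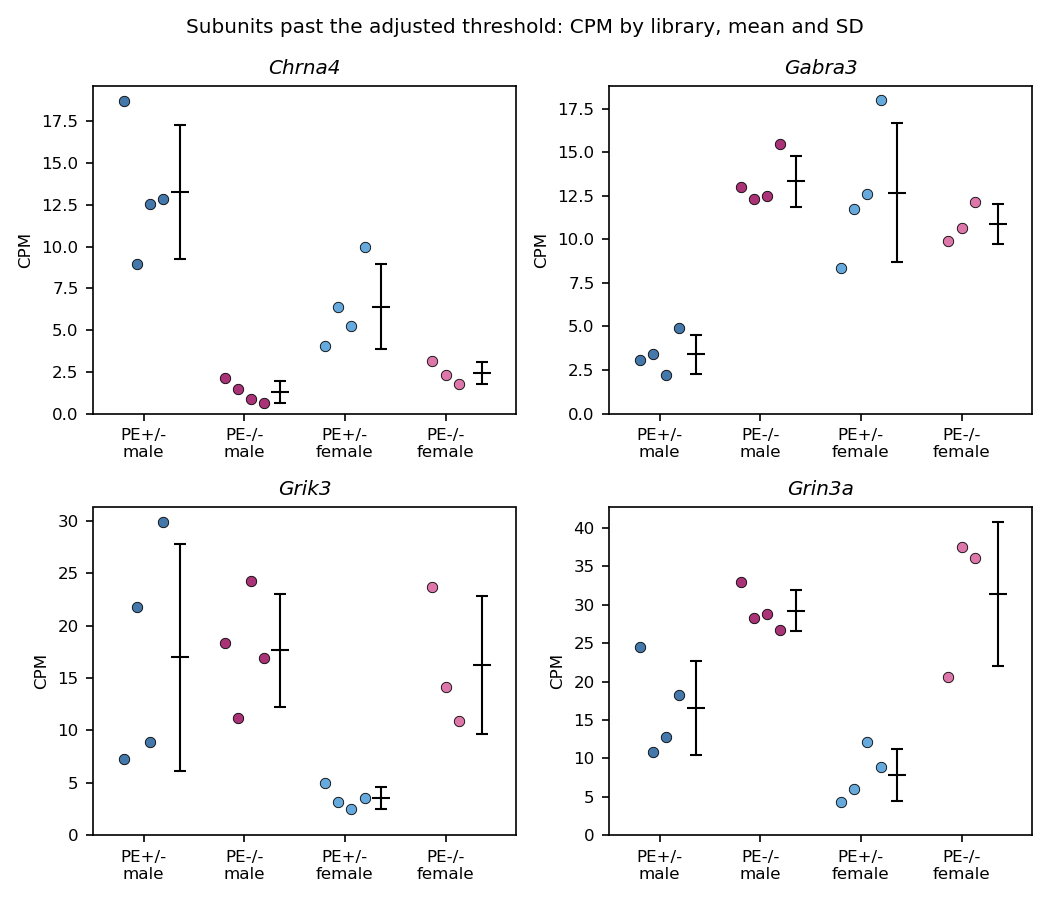
CPM of Chrna4, Gabra3, Grik3 and Grin3a in each library by group, with the mean and SD drawn beside the points (n = 4, 4, 4 and 3). Chrna4 had its lowest mean in PE-/- males, Gabra3 in PE+/- males, and Grik3 and Grin3a in PE+/- females.

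Gabra3 (MSTRG.26798, mm10 chromosome X, 72432681 to 72656848, minus strand) encodes the alpha-3 subunit of the GABA-A receptor. Counts of 44, 74, 36 and 76 in the PE+/- males stood against 258, 313, 269 and 278 in the PE-/- males. The highest control male was at 4.89 CPM and the lowest PE-/- male at 12.3 CPM. The level rose from 3.39 ± 1.12 CPM to 13.3 ± 1.47 CPM (SD, 4 libraries each), and its log2 fold change was 1.97 (SE 0.25) with an adjusted p of 0.0312 (edgeR). In females the gene was already at this level in controls, with counts of 108, 277, 234 and 297 for PE+/- and 161, 334 and 278 for PE-/-. The female groups overlapped, at 12.7 ± 4.00 CPM (n = 4) and 10.9 ± 1.15 CPM (n = 3), with a log2 fold change of -0.24 (SE 0.26, adjusted p 0.737, edgeR).

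The genotype difference of Gabra3 itself differed between the sexes. The interaction, the log2 fold change in females minus that in males, was -2.20 (SE 0.37) with an adjusted p of 0.0347 (edgeR), and Gabra3 was the only 1 of 42 subunits tested to pass, or 2.38% against 0.161% of all genes. Among PE+/- mice Gabra3 was higher in females than in males by 1.90 (SE 0.31, log2) with an adjusted p of 0.0397, and among PE-/- mice the difference was -0.30 (SE 0.16, adjusted p 0.997). PE+/- males are therefore the group that stands apart in all of these values, and the comparisons share these 4 libraries. With sex as a term the log2 fold change was 0.97 (SE 0.36, adjusted p 0.258).

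Calls for Gabra3 sat near the threshold. The male call was kept only without PE+/- male replicate 4, and leaving out any of the other 7 libraries gave an adjusted p of 0.0542 to 0.117 with a log2 fold change of 1.81 to 2.02. The control sex difference was kept only without PE+/- female replicate 1 (0.0771 to 0.131 without any of the other 7), and with no filter on low counts its adjusted p was 0.0590. The interaction was kept only without PE+/- female replicate 1 or PE+/- male replicate 3 or 4 (0.0539 to 0.0995 without any of the other 12). Without the 4 libraries with posterior lobe markers the 3 log2 values were 2.23, 2.25 and -2.46, with adjusted p of 0.253, 0.211 and 0.196. The other members of its X-linked cluster, named as its neighbours and not by their change, did not pass the test in males, with a log2 fold change of 0.84 (SE 0.54, adjusted p 0.946) for Gabre and -0.75 (SE 0.41, adjusted p 0.905) for Gabrq.

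The same question in females gave a different set of values. Grik3 was higher in PE-/- females and was the only 1 of 37 subunits tested to pass the adjusted threshold, which is 2.70% against 1.05% of the 18085 genes tested. At an unadjusted p under 0.05 there were 12 of 37 subunits, against 16.1% of all genes, and the groups did not overlap for 11 of 37, against 18.6%. The log2 fold change was positive for 24 and negative for 13, with a median of 0.29 beside 0.002 for all genes. The summed level of the 5 kainate subunits was 3.03 ± 0.683 CPM per kb in PE+/- females (n = 4) and 5.64 ± 0.696 in PE-/- females (n = 3). Prl, the product of lactotropes, was at 21701 to 34908 CPM in the PE+/- females and at 4586 to 5593 CPM in the PE-/- females, and its part in these values was not tested.

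Grik3 (MSTRG.17262, mm10 chromosome 4, 125490700 to 125714173, plus strand) encodes GLUK3, a kainate receptor subunit of low glutamate affinity. Its counts were 64, 74, 46 and 58 across the PE+/- females, against 385, 445 and 250 across the PE-/- females. Every PE-/- female was at least at 10.9 CPM and no PE+/- female was above 4.96 CPM. The level was 3.52 ± 1.05 CPM (SD, n = 4) against 16.2 ± 6.62 CPM (n = 3), and the log2 fold change was 2.19 (SE 0.35) with an adjusted p of 0.0420 (edgeR). Leaving out any library but PE+/- female replicate 1 ended the call, with adjusted p of 0.0868 to 0.124 and a log2 fold change of 1.81 to 2.41 over these 6.

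In males the genotypes overlapped in Grik3. Counts were 103, 476, 146 and 465 with PE+/- and 363, 283, 522 and 303 with PE-/-, or 17.0 ± 10.8 and 17.7 ± 5.40 CPM, with a log2 fold change of 0.05 (SE 0.47, adjusted p 0.996). The control males split into 7.25 and 8.90 CPM in replicates 1 and 3 and 21.8 and 29.9 CPM in replicates 2 and 4, and the latter are the control libraries with posterior lobe markers. Among PE-/- males the libraries with these markers were at 24.3 and 16.9 CPM and those without at 18.3 and 11.1 CPM. Without the 4 libraries the male log2 fold change was 0.84 with an adjusted p of 0.969, and the difference between control females and males went from -2.26 (SE 0.49, adjusted p 0.0938) to -1.20 (adjusted p 0.391). The fit with sex as a term went from 1.04 (SE 0.43, adjusted p 0.315) to 1.71 with an adjusted p of 0.0368. The combined genotype difference of Grik3 thus passed only when the libraries with posterior lobe markers were left out, among the alternatives run. The interaction was 2.14 (SE 0.63, adjusted p 0.232).

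**Figure D3:**
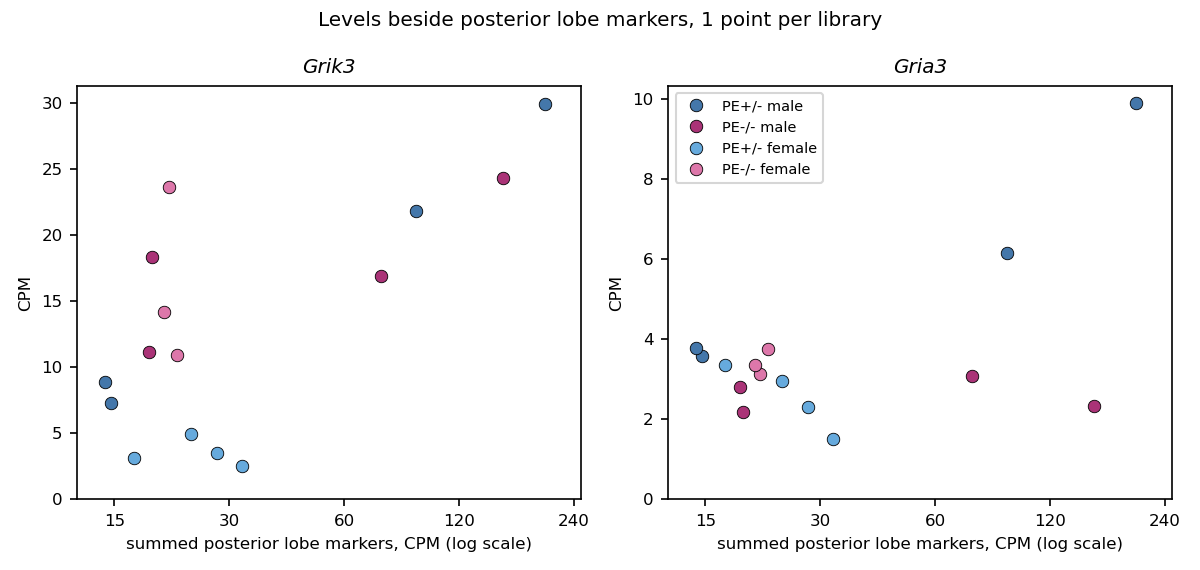
CPM of Grik3 and Gria3 against the summed CPM of 8 posterior lobe markers (log axis), 1 point per library, coloured by group. The PE+/- males with 92.7 and 201.5 CPM of markers have the higher Grik3 and Gria3 of their group, while the PE-/- males with 75.1 and 156.8 CPM of markers are at 3.07 and 2.33 CPM of Gria3.

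Gria3, an AMPA subunit singled out after its values were seen, followed the same libraries in the control males, with 6.14 and 9.91 CPM in replicates 2 and 4 and 3.59 and 3.78 CPM in replicates 1 and 3. It had 2.17 to 3.07 CPM in the PE-/- males, among them 2.33 and 3.07 CPM in the 2 libraries with posterior lobe markers. Its male log2 fold change of -1.18 (SE 0.35) had an adjusted p of 0.522.

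Of the 5 kainate subunits all had a positive log2 fold change in females, as did 24 of all 37 subunits tested, and only Grik3 passed. The kainate median of 1.20 was the value of Grik5. Grik4 and Grik5 encode the high-affinity kainate subunits, which need GRIK1, GRIK2 or GRIK3 to form a channel. Grik4 was at 0.973 ± 0.329 CPM in PE+/- and 2.67 ± 0.933 CPM in PE-/- females and Grik5 at 0.446 ± 0.243 and 1.03 ± 0.152 CPM, with adjusted p of 0.142 and 0.351. In the PE+/- females Grik5 had only 5 to 10 counts, under the limit of 12, and Grik4 had 8 to 33. Grik2 had the highest mean of the kainate subunits over all libraries, 1.80 CPM per kb. It was at 22.8 ± 3.77 and 28.4 ± 2.31 CPM in PE+/- and PE-/- females, with a log2 fold change of 0.29 (adjusted p 0.474).

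Grin3a (MSTRG.16675, mm10 chromosome 4, 49661611 to 49845744, minus strand) encodes GLUN3A, a glycine-binding NMDA receptor subunit that lowers calcium entry. It was higher in PE-/- mice in the fit over both sexes. Female counts were 55, 142, 225 and 145 with PE+/- and 335, 1180 and 827 with PE-/-. Male counts were 348, 236, 209 and 284 with PE+/- and 653, 718, 620 and 479 with PE-/-. In CPM the genotypes did not overlap in either sex, with 7.80 ± 3.43 against 31.4 ± 9.42 CPM in females (n = 4 and 3) and 16.6 ± 6.14 against 29.2 ± 2.67 CPM in males (n = 4 each).

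With sex as a term the log2 fold change of Grin3a was 1.36 (SE 0.28) with an adjusted p of 0.0278 (edgeR), higher in 7 of 7 PE-/- libraries. Chrna4 and Grin3a were the 2 of 42 subunits that passed in this fit, 4.76% against 1.17% of all 19286 genes, and 14 of 42 had an unadjusted p under 0.05 against 12.7%. Within a sex neither difference passed, with a log2 fold change of 1.98 (SE 0.38, adjusted p 0.0662) in females and 0.81 (SE 0.25, adjusted p 0.567) in males. Their difference was 1.18 (SE 0.47, adjusted p 0.403). The combined call was lost without PE+/- female replicate 2 or 4, PE-/- female replicate 2 or 3, PE+/- male replicate 2 or 3 or PE-/- male replicate 1, with adjusted p of 0.0508 to 0.0758 and a log2 fold change of 1.24 to 1.38, and without the 4 libraries with posterior lobe markers it was 1.53 with an adjusted p of 0.0654. Of the other NMDA subunits, Grin1 was at 1.94 CPM per kb with a log2 fold change of -0.17 in males and -0.02 in females (adjusted p 0.987 and 0.981).

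**Figure D4:**
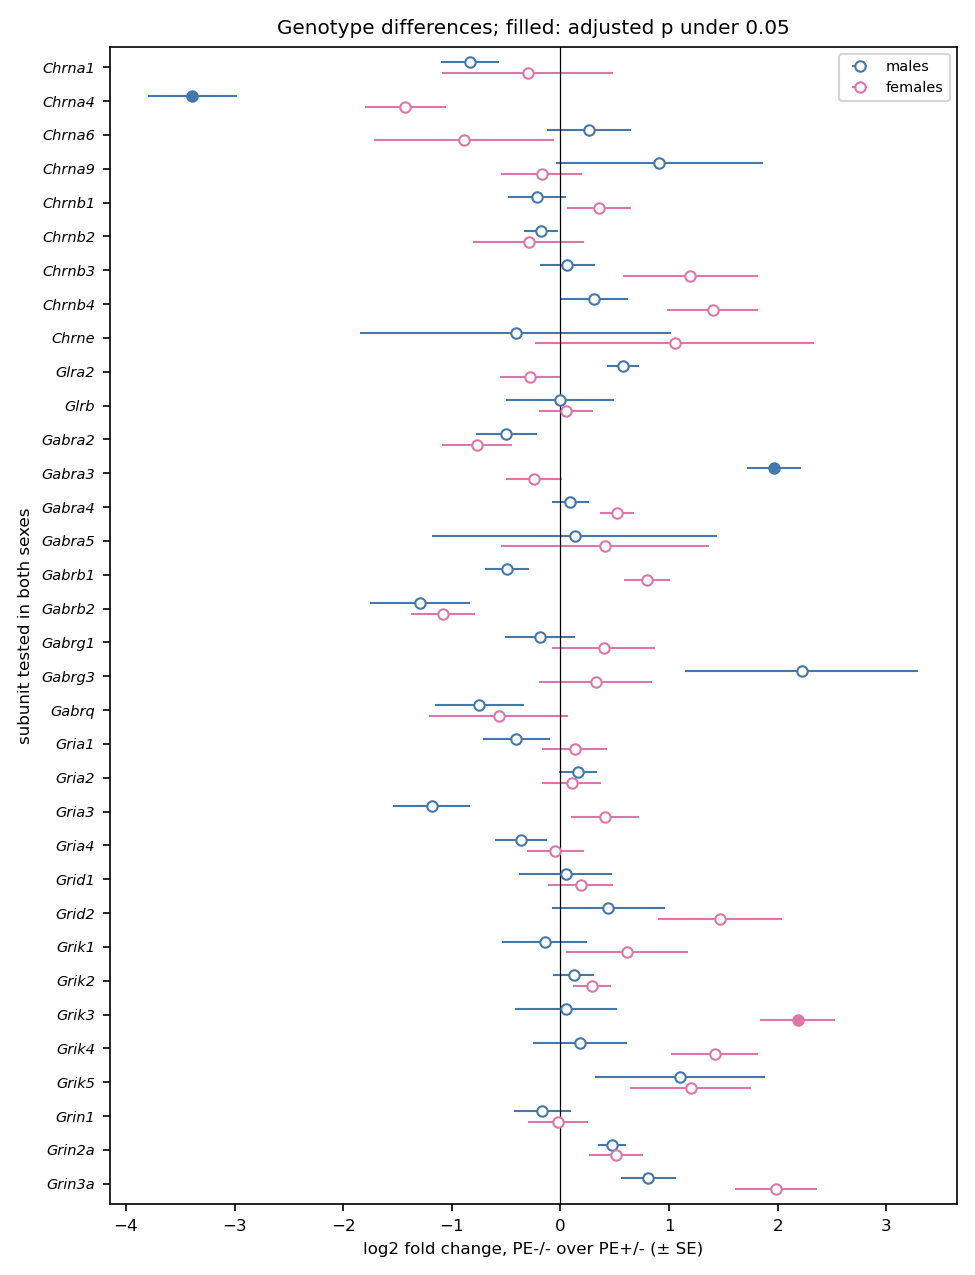
Log2 fold change of PE-/- over PE+/- with its SE for 34 of the 37 subunits tested in both sexes, males in blue and females in pink, ordered by family. Filled points mark an adjusted p under 0.05: Chrna4 and Gabra3 in males and Grik3 in females.

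The remaining named subunits with small unadjusted p did not pass. Glra2 had 40.9 to 58.0 CPM in the PE+/- males and 68.5 to 78.0 CPM in the PE-/- males, without overlap, and a log2 fold change of 0.58 (SE 0.14, adjusted p 0.358), which was 0.61 (adjusted p 0.965) without the libraries with posterior lobe markers. In females it was at 89.1 ± 30.4 CPM in PE+/- (n = 4) and 74.6 ± 1.95 CPM in PE-/- mice (n = 3). Its partner Glrb was at 46.0 ± 9.06 and 45.9 ± 25.1 CPM in PE+/- and PE-/- males, where replicate 2 of the PE-/- males was at 9.64 CPM and the other 3 at 52.6 to 67.8. Glra1, the alpha subunit of the adult spinal receptor, had counts in 5 of 8 PE+/- libraries, at most 1.34 CPM, and 0 in all 7 PE-/- libraries, and it was too low to be tested. Glra2 but not Glrb thus had separate male groups, though neither passed the test.

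Gabrb2, a beta subunit of the GABA-A receptor, was at 7.98 ± 3.94 and 3.28 ± 1.38 CPM in males (n = 4 each) and 8.52 ± 2.52 and 4.07 ± 1.10 CPM in females (n = 4 and 3), and with sex as a term its log2 fold change was -1.19 (SE 0.29, adjusted p 0.0663). Without PE+/- male replicate 4, at 2.83 CPM the lowest of the control males, the adjusted p was 0.0225, and without the libraries with posterior lobe markers it was 0.0341.

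Gabrb1, on chromosome 5, had a negative log2 fold change in males, -0.49 (SE 0.20, adjusted p 0.769), and a positive value in females, 0.80 (SE 0.21, adjusted p 0.125). The interaction was 1.30 (SE 0.30) with an adjusted p of 0.116, which did not pass, and 1.19 (adjusted p 0.586) without the libraries with posterior lobe markers. Its neighbours Gabra4 and Gabra2 were at 72.5 ± 15.2 and 24.0 ± 8.69 CPM in PE+/- males. Among the abundant subunits, Chrnb2 was at 100.1 ± 16.7, 88.9 ± 11.6, 98.7 ± 14.6 and 81.4 ± 54.0 CPM in PE+/- males, PE-/- males, PE+/- females and PE-/- females, the last with a single value of 22.4 CPM in replicate 2. Chrnb3 had a log2 fold change of 0.06 (SE 0.25) in males and 1.20 (SE 0.62) in females, with adjusted p of 0.990 and 0.406. Gria1, Gria2 and Gria4, the abundant AMPA subunits, had absolute log2 fold changes of at most 0.41 in either sex, with adjusted p of at least 0.897.

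**Figure D5:**
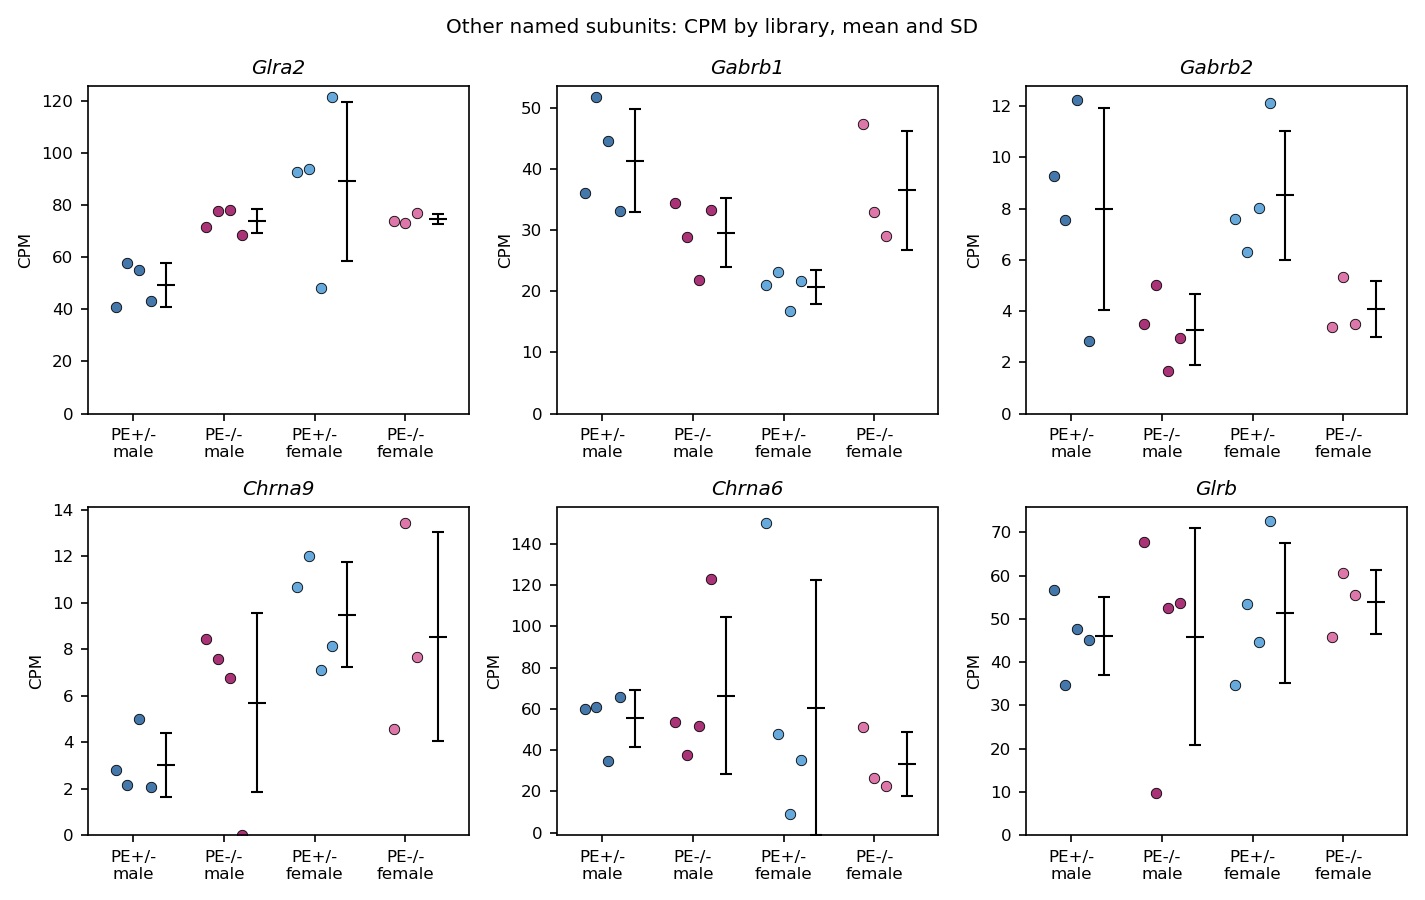
CPM of Glra2, Gabrb1, Gabrb2, Chrna9, Chrna6 and Glrb in each library by group, with the mean and SD drawn beside the points (n = 4, 4, 4 and 3). Glra2 was lower in all 4 PE+/- males than in all 4 PE-/- males, Gabrb1 had its lowest mean in the PE+/- females, and Chrna9 was at 0 in 1 PE-/- male.

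In controls the sexes differed in Gabra3 alone, 1 of 36 subunits tested or 2.78% against 0.67% of the 17163 genes. There were 9 of 36 subunits with an unadjusted p under 0.05, against 13.5% of all genes, and 6 of 36 with separate groups, against 9.73%. The log2 difference was positive for 14 and negative for 22, with a median of -0.19 beside -0.01 for all genes. Gabrb1 was lower in control females, at 20.7 ± 2.74 CPM against 41.4 ± 8.47 CPM (n = 4 each), a log2 difference of -1.0 (SE 0.18, adjusted p 0.0581). Chrna9, a subunit known from cochlear hair cells, was higher in control females, at 9.48 ± 2.26 CPM against 3.01 ± 1.37 CPM, with a log2 difference of 1.66 (SE 0.34, adjusted p 0.0812, and 0.0448 without PE+/- male replicate 3). Without the 2 control males with posterior lobe markers these 2 differences were -0.97 for Gabrb1 and 1.27 for Chrna9, with adjusted p of 0.263 and 0.40. The corresponding values of Chrna4 and Grin3a were -1.05 (adjusted p 0.205) and -1.09 (adjusted p 0.256).

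Between PE-/- females and PE-/- males 0 of 40 subunits passed, against 0.0494% of the 18217 genes. None had an unadjusted p under 0.05 in the edgeR test, against 3.37% of all genes, and DESeq2 called 0 as well. The groups did not overlap for 2 of 40, against 5.37%. Gabra3 was at 10.9 ± 1.15 CPM in PE-/- females and 13.3 ± 1.47 CPM in PE-/- males, Grik3 at 16.2 ± 6.62 and 17.7 ± 5.40, and Grin3a at 31.4 ± 9.42 and 29.2 ± 2.67 CPM. Chrna4, at 2.42 ± 0.675 and 1.27 ± 0.668 CPM, had a log2 difference of 0.92 (SE 0.45, adjusted p 0.997). Chrna6 had the smallest unadjusted p of this comparison, with a log2 difference of -1.01 (SE 0.49, adjusted p 0.997). In the interaction 7 of 42 subunits had an unadjusted p under 0.05, against 10.1% of all genes.

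Genes that supply the transmitters, that hold or modify these receptors, or that answer the same transmitters through G proteins were read as 3 lists. Of 25 supply genes, 17 were tested in each sex. In males 0 were called (edgeR) and 3 had an unadjusted p under 0.05, against 0.132% and 6.14% of all genes. In females 1 was called, or 5.88% against 1.05% of all genes. It was Slc17a8, which encodes the vesicular glutamate transporter VGLUT3. It had 54 to 140 counts in the PE+/- females and 356 to 651 in the PE-/- females, with a log2 fold change of 2.29 (SE 0.28, adjusted p 0.0209). In males it had 86 to 231 and 318 to 611 counts, and in the fit over both sexes the log2 fold change was 1.82 (SE 0.22, adjusted p 0.000615), or 2.08 (adjusted p 0.00195) without the libraries with posterior lobe markers. Slc6a11, a GABA transporter, was at 11.4 ± 6.17 and 37.1 ± 7.23 CPM in PE+/- and PE-/- females (adjusted p 0.106), and Bche, butyrylcholinesterase, at 18.3 ± 3.23 and 28.9 ± 3.66 CPM in PE+/- and PE-/- males (adjusted p 0.411). Chat, which makes acetylcholine, was at 0 in all libraries, and Gad1, which makes GABA, had counts in 1 library, 13 in PE-/- female replicate 2.

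Of 44 anchoring, auxiliary and assembly proteins, 39 were tested in each sex. In males 1 was called, or 2.56% against 0.132% of all genes, and in females 4, or 10.3% against 1.05%. Slurp2, a secreted Ly6 protein that acts on nicotinic receptors, had 57 to 80 counts in the PE+/- males and 60 to 304 counts in the PE+/- females and 0 counts in all PE-/- libraries. With 12 counts taken for the whole PE-/- group, it was 28.4-fold lower in PE-/- males and 50.4-fold lower in PE-/- females (adjusted p 0.0106 and 0.0277, edgeR). The detection limit of 12 counts in each library would give smaller ratios. Without the libraries with posterior lobe markers the adjusted p for Slurp2 in males was 0.191. Nptx1, a secreted pentraxin that clusters AMPA receptors, was higher in PE-/- females by 2.10 (SE 0.30, log2, adjusted p 0.0309), and among controls it was lower in females than in males, with a log2 difference of -2.26 (SE 0.27, adjusted p 0.0145). This difference was -2.33 (adjusted p 0.0764) without the control males with posterior lobe markers. Its levels of 24.4, 22.3, 5.06 and 22.1 CPM in PE+/- males, PE-/- males, PE+/- females and PE-/- females were lowest in PE+/- females, as those of Grik3 were. Shisa9, an AMPA receptor auxiliary protein, was higher in PE-/- females by 1.73 (SE 0.28, adjusted p 0.0428), and Gabarap, a GABA-A receptor trafficking protein with a role in autophagy, was lower, with a log2 fold change of -0.76 (SE 0.11, adjusted p 0.0313).

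Of 15 metabotropic receptors, 9 were tested within each sex and 0 were called there (edgeR). At an unadjusted p under 0.05 there were 2 in each sex, or 22.2%, against 6.14% of all genes in males and 16.1% in females. Grm2, a group II glutamate receptor, had 6 to 26 counts in PE+/- and 82 to 143 counts in PE-/- males, and 0 to 11 and 143 to 218 counts in females. With sex as a term its log2 fold change was 3.17 (SE 0.48, adjusted p 0.00606), or 3.30 (adjusted p 0.0291) without the libraries with posterior lobe markers. Grm5, a group I receptor, was higher in control females than in control males by 2.57 (SE 0.44, adjusted p 0.0457), at 16.6 against 2.79 CPM, and without the control males with these markers the difference was 2.27 (adjusted p 0.356). Chrm3, a muscarinic receptor, was at 0.799 ± 0.297 CPM in PE+/- and 0.364 ± 0.137 CPM in PE-/- females (adjusted p 0.376). The medians of the 3 lists in females were 0.08, 0.33 and 0.24 on the log2 scale, in the order supply, partners and metabotropic receptors, beside 0.002 for all genes. In males they were 0.02, -0.05 and 0.24, beside 0.003 for all genes, so that the male median of the partner list was near 0. Of the 39 partner genes tested, 16 had a positive and 23 a negative log2 fold change in males, and 27 and 12 in females.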

How the data were processed

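Total RNA of whole pituitary glands from 15 mice was made into libraries with a low-input kit and sequenced as paired ends. According to the study's methods and the labels, the authors used cutadapt for trimming, STAR with the mm10 genome, featureCounts for gene counts and edgeR for group comparisons. The deposited table holds whole-number estimated counts per gene, not normalized, whose row names (MSTRG identifiers) are those of an assembled annotation. Low values of 5, 9 and 13 were 1.52, 1.16 and 1.08 times as frequent as their neighbours, so 1 fragment is worth about 4 counts, and the limit of detection was set at 12. Counting error is therefore larger than the counts alone would give.

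All tests were fitted on the whole table with edgeR 4.0.16 in R 4.3.3 (genes kept with filterByExpr at a minimum count of 10 and a minimum total of 15, TMM scaling, quasi-likelihood F test, two-sided, Benjamini-Hochberg adjustment over all genes tested, threshold 0.05). The SE is the log2 fold change divided by the square root of F. Groups came from the genotype and sex labels. Comparisons were PE-/- against PE+/- within each sex and with sex as a term, females against males within each genotype, and the interaction. Nothing says that replicates are separate litters, so p-values measure the spread between these samples. All 21 pairs of replicates within groups differed beyond sampling noise, and none was merged. Exon lengths and positions are from GENCODE M21 (mm10) and promoters from RefSeq.

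The members, lists and tests were chosen with earlier results of these data known. Named subunits are those past the threshold in any comparison, the 4 with the highest mean CPM in each family and the 3 with the smallest unadjusted p in each comparison. Of the 3 partner lists, the genes past the threshold and, per list, the 3 with the smallest unadjusted p within a sex are named. Values of 3 subunits are not reported here, though counts over subunits include them. The fits were tested on simulated data first. Alternatives were DESeq2 1.42.0, edgeR's likelihood ratio test, other scalings and filters, summed rows, counts divided by 4, each library left out, a replicate block, and 1 fit on all libraries. Leaving out the libraries with posterior lobe markers (over 50 CPM in sum) was chosen after seeing the data.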

Additional observations from a re-analysis of the deposited data

Results flagged for a closer look

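The genotype difference of Gabra3 differed between the sexes by the interaction test, with -2.20 on the log2 scale (females minus males) and an adjusted p of 0.0347 (edgeR). It stood out because the 4 PE+/- males were low and the other 3 groups ranged from 8.37 to 18.0 CPM. Among 53 groups of 4 libraries checked over 19 named subunits, 0 had a single value that passed Dixon's test at the 95% level, which sets the gap to the nearest value over the range of the group and which chance passes in about 1 in 20 groups. The lowest values of Glrb and of Chrna9 in the PE-/- males, 9.64 and 0 CPM, had gaps of 0.739 and 0.80 of the range and stayed under its limit for 4 values. No subunit reported here had separate groups in opposite directions in the 2 sexes.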

How the results depend on the processing

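Of 634 alternative values for 31 changes of single subunits, 544 kept their direction and their side of the threshold. Another 55 lost a call, 27 gained a call and 8 changed sign. Most of these changes were not called in the main fit, and only a called change can lose a call. Chrna4 with sex as a term kept its call in 25 of 25 alternatives. The other called changes kept it in 12 of 19 (Chrna4, males), 10 of 19 (Gabra3, males), 10 of 17 (Grik3, females), 9 of 19 (Gabra3, control sexes), 12 of 25 (Gabra3, interaction) and 16 of 25 (Grin3a, sex as a term). The 8 changes of sign were all for values near 0 that were not called. They were Grik3 in males at -0.20, -0.16 and -0.14 (without PE+/- male replicate 1, PE+/- male replicate 3 and PE-/- male replicate 3, in a range of -0.20 to 0.47 over single libraries), Grik3 between the sexes in PE-/- mice at 0.083, 0.065 and 0.15 (without PE-/- female replicate 3, PE-/- male replicate 3 and the libraries with posterior lobe markers, in a range of -0.51 to 0.083 over single libraries), and Grin3a between these groups at -0.037 and -0.026 (without PE-/- female replicates 2 and 3, in a range of -0.037 to 0.32).

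The number of subunits called was 2 in males, 1 in females, 1 between control sexes, 1 in the interaction and 2 with sex as a term. The counts under the alternatives below are given without the share of all genes called in the same fit. They show how the number moved and are no result about the subunits in particular. DESeq2 called 8 in females, 4 between control sexes, 3 in the interaction and 4 with sex as a term. The likelihood ratio test called 5 in females, 4 between control sexes and 2 in the interaction. Counts divided by 4 gave 2 in females and 2 between control sexes, 1 fit on all 15 libraries gave 2 and 3, and no filter on low counts gave 0 between control sexes. Leaving out single libraries gave 0 to 1 in males, 0 to 1 in females, 0 to 1 between control sexes, 0 to 1 in the interaction and 1 to 3 with sex as a term. Without the libraries with posterior lobe markers, an alternative chosen after seeing the data, 0 were called in males, 0 between control sexes, 0 in the interaction and 3 with sex as a term (Chrna4, Gabrb2 and Grik3, of which only Chrna4 is among the 2 called with all libraries). Of the partner lists, Slc17a8, Slurp2, Grm2 and Cacng5 were called with sex as a term, while the calls of Slurp2 in males and of Nptx1 and Grm5 between control sexes were lost. The cause of these differences was not tested, and genes of the partner lists were refitted under this alternative only. Beyond the number of libraries, depth limits the subunits at or under 12 counts, for which no difference was detectable.

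Samples with the same replicate number showed no clear pairing, and only 2 of 21 such pairs had a correlation of deviations over 0.1 (range -0.081 to 0.131). Pairs with different numbers were not used as a reference. Shared litters or batches that do not follow the replicate number could not be seen in this way. With a replicate block 0 subunits were called in males, 0 in females, 0 between control sexes and 1 with sex as a term.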
